A study of Mus musculus with 15 samples.

Results

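Fibroblasts from lungs with macrometastases of MDA-LM2 cells were compared with fibroblasts from lungs with macrometastases of parental MDA cells, both at week 3 after injection of the cancer cells. MDA is the human breast cancer line MDA-MB-231, and MDA-LM2 is its derivative with a high capacity to colonise the lung. The members are the 3 arrays of the group labelled MDA-LM2 macrometastatic lung and the 3 arrays of the group labelled MDA macrometastatic lung, 6 of the 15 arrays of the series, and all 18193 genes with a probe set of their own symbol were compared. The other 9 arrays hold week 1 fibroblasts (MDA-LM2 micro and MDA micro, 3 arrays each, from lungs with micrometastases) and fibroblasts of healthy lungs (3 arrays). All mice were female NSG mice of 6 to 8 weeks, a strain with no mature lymphocytes of its own but with myeloid cells. Tumour-bearing mice were chosen for like bioluminescence of the 2 lines, so the lines were compared at a matched load, and each line is 1 line and not a sample of lines. Cells were sorted as positive for CD140a or CD140b, the PDGF receptors, and negative for CD45, CD11b, CD31 and EPCAM. The labels call the arrays of a group biological replicates, and each was made from the lungs of 1 to 3 mice.

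Fibroblasts of the lung build and remodel the collagen matrix, and around a growing metastasis they take on contractile, matrix-depositing and inflammatory programmes. The PDGF receptors are carried by alveolar and adventitial fibroblasts, and also by pericytes, the mural cells that wrap capillaries and depend on PDGF-B and Notch signals from the endothelium, so that this gate can hold several mesenchymal types. Mesothelial cells, which cover the lung surface, share many matrix genes with fibroblasts. In such sorted bulk samples, fewer cells of a type and less RNA per cell cannot be told apart.

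All 6 arrays carried the fibroblast profile at nearly one level. Col1a1 and Col1a2, the chains of type I collagen, had intensities of 15497 to 15831 and 15117 to 15351 in MDA-LM2 macro, and of 15629 to 16632 and 14712 to 15755 in MDA macro. Decorin (Dcn) lay at 10291 to 11044 in MDA-LM2 macro and at 10607 to 12025 in MDA macro. Pdgfra, which the gate used, had 3980, 3317 and 3752 in MDA-LM2 macro and 3600, 3562 and 3467 in MDA macro, and Pdgfrb had 4804, 4428 and 4996 in MDA-LM2 macro and 5420, 5285 and 5565 in MDA macro. The common leukocyte gene Ptprc (86.9 to 94.9 in MDA-LM2 macro, 80.2 to 87.5 in MDA macro) and Epcam (92.4 to 101 in MDA-LM2 macro, 88.3 to 93.7 in MDA macro) stayed below the array medians of 174 to 186. Every pair among the 6 arrays correlated between 0.971 and 0.984 across genes, also between groups, and no 2 arrays held the same values. The 3′ minus 5′ difference of the Gapdh control probe sets, which grows with shorter labelled RNA, was 1.01, 1.05 and 1.05 log2 in MDA-LM2 macro, and 1.35, 1.43 and 1.03 log2 in MDA macro (exact permutation test, two-sided, p = 0.3, with 0.1 the smallest value that 3 against 3 allows). The part of this spread in the results was not tested.

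At week 3, Tmie and Sema5b passed the test, and both were lower in MDA-LM2 macro. Tmie, a transmembrane protein of the mechanotransduction complex of hair cells, had intensities of 213, 169.8 and 218 in MDA-LM2 macro and 753, 758 and 838 in MDA macro. All 3 MDA-LM2 arrays lay far below the 3 MDA arrays, and Tmie fell by 1.97 on the log2 scale (SE 0.13, n = 3 each, limma adjusted p = 0.0154). Sema5b, a semaphorin known for guiding axons, had 248, 242 and 269 in MDA-LM2 macro and 597, 621 and 615 in MDA macro, again without overlap, and fell by 1.27 (SE 0.10, adjusted p = 0.0282). Called means a Benjamini-Hochberg adjusted p under 0.05 over all 18193 genes. By this rule 2 genes were called lower (0.011% of those tested) and 0 were called higher (0%). Both calls needed all 6 arrays, since with any 1 array left out the adjusted p of Tmie was 0.0558 to 0.17 and that of Sema5b 0.114 to 0.213, with log2 fold changes of -2.04 to -1.86 and -1.32 to -1.24. Other probe sets gave -0.25 and -1.04 for Tmie and -0.87 for Sema5b, and with the mean of its probe sets Tmie was at -1.09 and not called (adjusted p = 0.0509). Sema5b was not called with an intensity trend in the prior (adjusted p = 0.0639). Of the 181 genes named by the rule or added as list members, 109 had other probe sets, and 24 had one of the opposite sign.

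Counts at looser thresholds give the background of the comparison. At an unadjusted p under 0.05, 1076 genes (5.91%) were higher and 788 (4.33%) lower in MDA-LM2 macro, and the arrays of the groups did not overlap at 1768 genes (9.72%) higher and 1169 genes (6.43%) lower. Each gene list below is read against these shares. At an adjusted p under 0.1, a further 37 genes joined Tmie and Sema5b, 21 higher and 16 lower. A difference of 2-fold or more was measured for 75 genes higher and 40 lower, and the median over all genes was 0.03 log2. The 95% interval of the difference lay within 1 log2 unit (2-fold) of 0 for 16948 genes (93.2%). When the spread was estimated from all 15 arrays, 64 genes were called, 42 higher and 22 lower, with Tmie (adjusted p = 0.00954) but without Sema5b (adjusted p = 0.3).

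**Figure D1:**
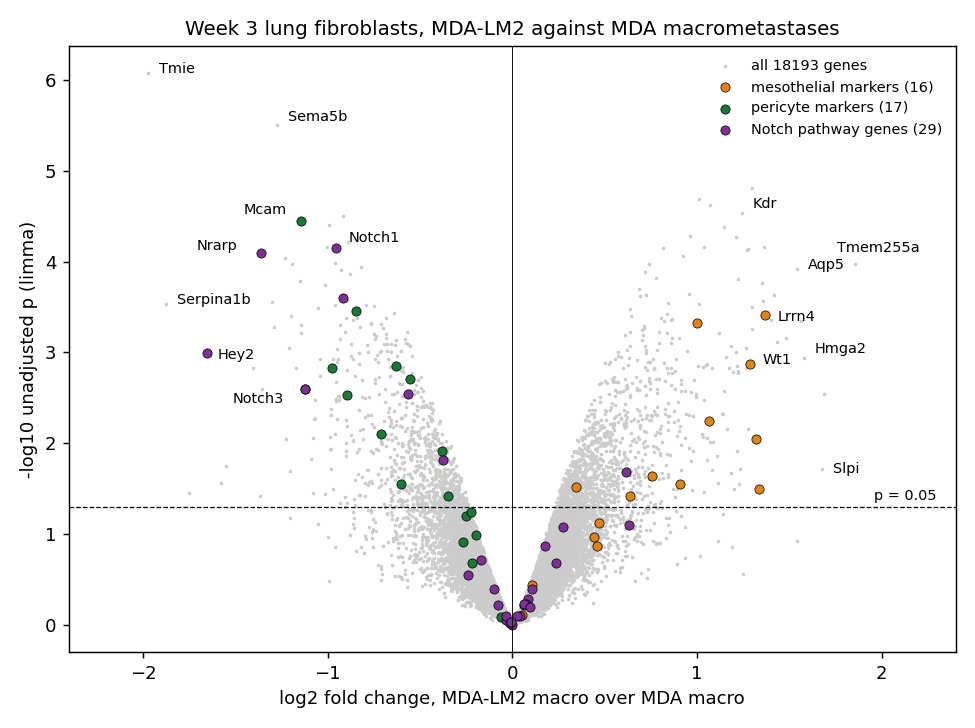
Each point is 1 gene, with the log2 fold change of MDA-LM2 macro over MDA macro on the x axis and -log10 of the unadjusted limma p on the y axis, and the members of 3 gene lists are coloured. Tmie and Sema5b stand above all other genes on the left, the pericyte markers lie left of 0, and 15 of 16 mesothelial markers lie right of 0.

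No gene passed the test as higher in MDA-LM2 macro. The 12 named here had the highest fold changes among genes with an unadjusted p under 0.05 and no overlap of the groups, at any level. Their separation is thus part of how they were chosen. Tmem255a, a membrane protein of little known function, had 762, 588 and 834 in MDA-LM2 macro and 174, 290.3 and 156 in MDA macro (log2 fold change 1.86 ± 0.25 SE, limma adjusted p = 0.07). Its 3 other probe sets were higher too, by 0.95 to 1.54. Hmga2, a chromatin protein of embryonic and tumour tissue, had 774, 869 and 483 in MDA-LM2 macro and 254, 314 and 154 in MDA macro (1.58 ± 0.31, adjusted p = 0.137, and 0.96 with the mean of its probe sets). Slpi, a secreted inhibitor of leukocyte elastase, had 4347, 1980 and 2688 in MDA-LM2 macro and 1472, 1394 and 345 in MDA macro (1.68 ± 0.57, adjusted p = 0.382), and its MDA arrays spread widely. Il18r1, a chain of the interleukin-18 receptor, had 298, 454 and 263 in MDA-LM2 macro and 93.9, 154 and 95.6 in MDA macro (1.56). Phex, an endopeptidase of phosphate balance known from bone, had a log2 fold change of 1.69, and Ctnnal1, an alpha-catenin-like protein, one of 1.36 (adjusted p = 0.0642), with a second probe set at 1.45. The water channel Aqp5 (1.54), the erythroid heme synthase Alas2 (1.48) and the mesothelial gene Lrrn4 (1.37) are taken up with the cell type markers below. The remaining 3 were Angptl7 (1.44), an angiopoietin-like secreted protein, Pnoc (1.42), the nociceptin precursor, and Disp2 (1.40), a dispatched-family membrane protein whose other probe sets gave 0.40 and -0.10 (0.57 with the mean of its probe sets). The healthy lungs lay below all MDA macro arrays for 6 of the 12, Slpi (145 to 224), Hmga2 (101 to 141), Il18r1 (63.3 to 67.7), Aqp5 (136 to 170.1), Alas2 (126 to 167) and Lrrn4 (67.8 to 126).

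Of the 12 genes with the lowest fold changes, chosen by the same rule after the called ones, Tmie and Sema5b were called and the other 10 were not. Serpina1b, a secreted antitrypsin whose close paralogs may share the signal of its probe sets, had 241, 184 and 339 in MDA-LM2 macro and 895, 1277 and 649.5 in MDA macro (-1.88 ± 0.29, adjusted p = 0.103). Col10a1, the collagen of hypertrophic cartilage, had 776, 539.8 and 525 in MDA-LM2 macro and 2004, 2097 and 1276 in MDA macro (-1.54 ± 0.23, adjusted p = 0.102), against 117, 117 and 118 in healthy lungs. All 6 arrays lay above the healthy ones, those of MDA macro farthest. Inpp4b, a phosphoinositide phosphatase, had a log2 fold change of -1.36, with -0.16 on its other probe set (-0.76 with the mean of its probe sets), and Mtcl1, a microtubule cross-linker, one of -1.40. In 4 of the 12, a single MDA array carried much of the difference. Itih3, a carrier of hyaluronan, had 288, 285 and 382 in MDA-LM2 macro and 563, 2358 and 596 in MDA macro (-1.55, and -0.88 without MDA macro replicate 2). Camk2a, a calcium-dependent kinase, had 146, 130.4 and 204 in MDA-LM2 macro and 1835, 251 and 321 in MDA macro (-1.75, -0.85 without MDA macro replicate 1 and -0.50 with the mean of its probe sets). The iron regulator Hjv (-1.58, and -0.82 without MDA macro replicate 2) and 2010109A12Rik (-1.37, and -0.69 without MDA macro replicate 3) showed 1 bright MDA array in the same way. Hey2 (-1.65) and Nrarp (-1.36), both targets of Notch, are given with the Notch genes.

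**Figure D2:**
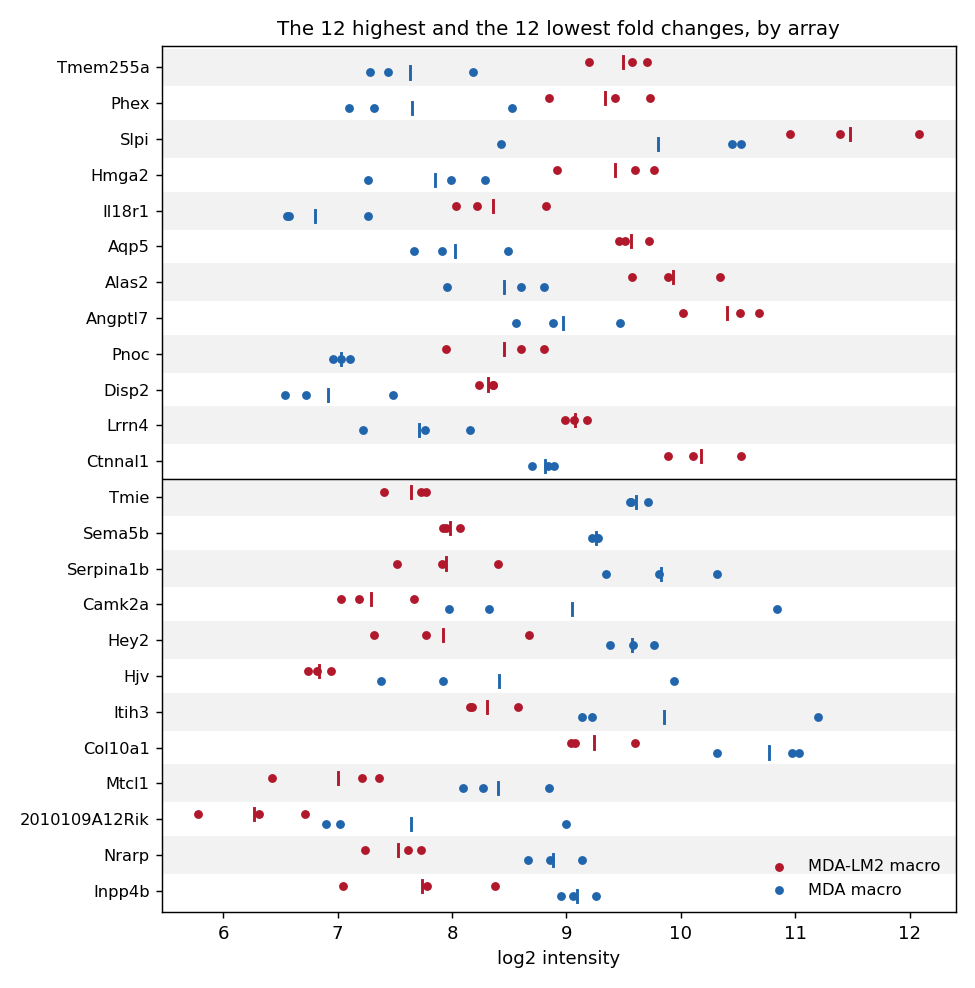
Each row is 1 gene, each point 1 array, and the x axis gives log2 intensity, with MDA-LM2 macro above MDA macro in every row and a bar at each mean. The upper 12 rows hold the named genes higher in MDA-LM2 macro and the lower 12 those lower in it, the groups do not overlap in any row by the rule of choice, and the MDA arrays of Camk2a, Hjv and Itih3 show 1 point far to the right.

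The clearest pattern among the gene lists was in pericyte markers, which were lower in MDA-LM2 macro. All 17 of the measured members had negative log2 fold changes, with a median of -0.56 beside 0.03 over all genes. At an unadjusted p under 0.05, 11 of the 17 were lower, against 4.33% of all genes, and 14 of the 17 did not overlap, against 6.43%. None was called by adjusted p. Mcam (CD146), an adhesion molecule of pericytes and vessels, had 546, 467 and 592 in MDA-LM2 macro and 1204, 1255 and 1075 in MDA macro (-1.14 ± 0.13, adjusted p = 0.0642). The lowest MDA array was well above the highest MDA-LM2 array for it. Rgs5, a regulator of G-protein signals that marks pericytes, had 2564, 1780 and 2884 in MDA-LM2 macro and 3432, 3791 and 4441 in MDA macro (-0.71 ± 0.20). Its 3 other probe sets gave -0.88, -0.96 and -0.89. Cspg4 (NG2), the pericyte proteoglycan, had 1740, 1434 and 1673 in MDA-LM2 macro and 2654, 2588 and 2245 in MDA macro (-0.63 ± 0.13). The respiratory chain subunit Cox4i2 (-0.98), vitronectin (Vtn, -0.85) and the soluble guanylate cyclase chain Gucy1b1 (-0.56) also did not overlap between the groups.

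The summed intensity of the 17 pericyte markers was 33450 to 40760 in MDA-LM2 macro and 47430 to 52190 in MDA macro. In the other groups it was 46510 to 58990 in MDA-LM2 micro, 34830 to 44740 in MDA micro and 40430 to 54920 in healthy lungs. The sums of the lines did not overlap at either week, and their order was the opposite at week 1. With each array left out in turn, 10 or 11 of the 17 stayed lower at an unadjusted p under 0.05. The genes of the sorted receptors, which fibroblasts and pericytes share, had log2 fold changes of 0.05 for Pdgfra and -0.20 for Pdgfrb, of which a second probe set was lower at -0.56 (unadjusted p = 0.00287).

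Several Notch signalling genes were lower beside the pericyte markers, in a list of 29 measured genes that was written after these values had been seen. Notch3 belongs to both lists and is counted in each. Notch receptors, bound by ligands such as Jag1 on a neighbouring cell, release a fragment that switches on the HEY transcription factors and Nrarp, and Notch3 is the receptor of mural cells. At an unadjusted p under 0.05, 7 of the 29 were lower and 1, Psen2 (0.61), was higher, and the list median was -0.01. The receptor Notch3 had 1941, 1148 and 1984 in MDA-LM2 macro and 3565, 2869 and 4474 in MDA macro (-1.12 ± 0.25). The receptor Notch1 had 747, 726 and 872 in MDA-LM2 macro and 1473, 1433 and 1628 in MDA macro (-0.95 ± 0.12, adjusted p = 0.0642), nearly 2-fold apart with a small spread. Both receptors were lower on their second probe sets too, by -1.03 for Notch3 and -0.51 for Notch1.

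The targets named here were chosen for an unadjusted p under 0.05, from the list written with the values known. Their common direction with the receptors is thus no separate result. The list as a whole did not share it, with 14 of the 29 log2 fold changes positive and 15 negative. Hey2 had 219, 160.0 and 408 in MDA-LM2 macro and 665, 766 and 873 in MDA macro (-1.65 ± 0.32, adjusted p = 0.133). Nrarp, a feedback inhibitor of Notch, had 212, 151 and 196 in MDA-LM2 macro and 463, 406 and 561 in MDA macro (-1.36 ± 0.18, adjusted p = 0.0669). Hey1 had 969.7, 835 and 1156 in MDA-LM2 macro and 1868, 1764 and 1903 in MDA macro (-0.91 ± 0.14), and Heyl had 5209, 4418 and 5723 in MDA-LM2 macro and 7879, 7090 and 7619 in MDA macro (-0.56 ± 0.13). The ligand Jag1 had 1284, 1399 and 1231 in MDA-LM2 macro and 1677, 1875 and 1540 in MDA macro (-0.38 ± 0.12). In each of these 7 genes all 3 MDA-LM2 arrays lay below all 3 MDA arrays. None was called, and their adjusted p ranged from 0.0642 to 0.345.

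The upstream sequences of Hey2 and Nrarp, the Notch targets with the lowest fold changes, are shown because these members were lower together. Each is the 250 bases before the gene's start (RefSeq, GRCm38.p6, read 5′ to 3′ on the gene's strand), with matches to the RBPJ core GTGGGAA or its reverse complement TTCCCAC in capitals, the DNA motif through which Notch acts.
Hey2 (chr10:30842784-30843033, minus strand): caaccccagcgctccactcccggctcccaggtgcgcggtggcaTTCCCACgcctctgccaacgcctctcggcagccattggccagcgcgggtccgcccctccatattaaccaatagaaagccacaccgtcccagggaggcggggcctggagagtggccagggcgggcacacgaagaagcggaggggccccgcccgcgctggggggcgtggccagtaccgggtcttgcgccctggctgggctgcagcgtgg
Nrarp (chr2:25180508-25180757, plus strand): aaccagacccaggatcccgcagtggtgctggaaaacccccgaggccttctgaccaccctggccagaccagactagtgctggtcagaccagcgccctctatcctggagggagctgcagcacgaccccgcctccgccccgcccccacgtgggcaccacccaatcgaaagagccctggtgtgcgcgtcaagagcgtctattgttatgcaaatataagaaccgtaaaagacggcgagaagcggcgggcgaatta
The Hey2 window holds 1 match, on the reverse strand, beginning 207 bases before the start. The Nrarp window holds 0, as do those of Notch1, Notch3, Tmie, Mcam and Sema5b, which were also scanned. Hey1 and Heyl had no window to scan. Of all 32851 such windows, 5.42% hold at least 1. A match is a description of the letters and not of binding.

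Mesothelial markers differed in the other direction and were higher in MDA-LM2 macro. At an unadjusted p under 0.05, 10 of 16 were higher and 0 lower, against 5.91% and 4.33% of all genes. Without overlap, 8 of the 16 lay higher, against 9.72% of all genes, and the median log2 fold change was 0.70. None was called. Lrrn4, a leucine-rich repeat protein of mesothelium, had 536, 508 and 579 in MDA-LM2 macro and 217, 285 and 149 in MDA macro (1.37 ± 0.22, adjusted p = 0.11). Upk3b, a uroplakin of mesothelial cells, had 1205, 1040 and 1250 in MDA-LM2 macro and 605, 698 and 463 in MDA macro (1.00 ± 0.17). Wt1, the transcription factor of mesothelium, had 987, 819.9 and 1152 in MDA-LM2 macro and 386, 579.7 and 286 in MDA macro (1.29 ± 0.26). The groups did not overlap for any of these 3 genes. Mesothelin (Msln) had 644, 545 and 418 in MDA-LM2 macro and 357, 403 and 212 in MDA macro (0.76 ± 0.27). The keratin Krt18 (1.32) and the membrane glycoprotein Gpm6a (1.07) were also higher.

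The mesothelial sums of both lines at week 3 lay above those of all other arrays. Msln was at 94.2, 91.3 and 123 in healthy lungs and at 78.9 to 83.2 in MDA-LM2 micro and 73.2 to 88.9 in MDA micro, and Wt1 was at 96.9, 102 and 98.9 in healthy lungs. The summed intensity of the 16 markers was 14840 to 18760 in MDA-LM2 macro and 8050 to 12910 in MDA macro, beside 3829 to 4430 in MDA-LM2 micro, 3431 to 3988 in MDA micro and 4336 to 6236 in healthy lungs. No marker was at 0, as no value of these arrays is. The part of mesothelial RNA in the other genes that were higher in MDA-LM2 macro was not tested. Leaving out MDA macro replicate 3 or MDA-LM2 macro replicate 1 left 5 of the 16 at an unadjusted p under 0.05, leaving out MDA-LM2 macro replicate 2 left 6, and the other 3 arrays left 8, 11 and 11.

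**Figure D3:**
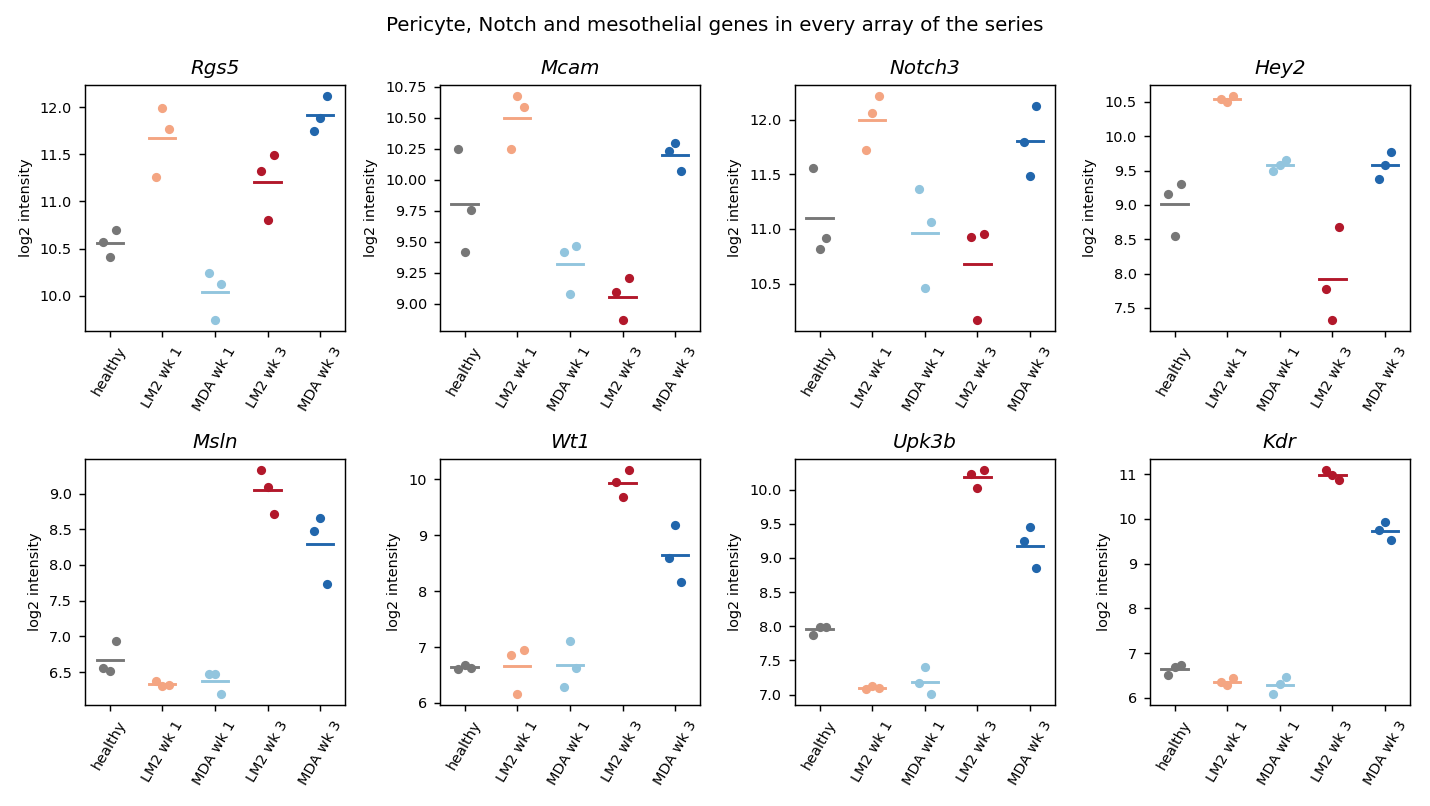
Each panel plots 1 gene, each point is 1 array with its log2 intensity on the y axis, bars are group means, and LM2 and MDA at week 1 (wk 1) and week 3 (wk 3) follow the healthy lungs. Rgs5, Mcam, Notch3 and Hey2 are lower with MDA-LM2 at week 3 and higher with it at week 1, while Msln, Wt1, Upk3b and Kdr are low in all week 1 and healthy arrays and high at week 3, most with MDA-LM2.

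Markers of cells that the gate should remove differed in both directions. Of 18 endothelial markers, 2 were higher and 3 lower at an unadjusted p under 0.05. Kdr (VEGFR2), the main VEGF receptor, had 2183, 2022 and 1871 in MDA-LM2 macro and 864, 979 and 735 in MDA macro (1.24 ± 0.14, adjusted p = 0.0642), while the defining endothelial genes Pecam1 (135 to 165 in MDA-LM2 macro, 119 to 194 in MDA macro) and Cdh5 (81.6 to 106 in MDA-LM2 macro, 72.6 to 124 in MDA macro) overlapped between the groups. Of the other VEGF receptor genes, Flt1 ran the opposite way (-0.71 ± 0.26). Flt4 ran the same way as Kdr, at 0.97 and at 0.61 on its second probe set. The summed intensity of the list was 8210 to 8718 in MDA-LM2 macro and 7347 to 7485 in MDA macro. This sum includes Kdr, and over the list 9 log2 fold changes were positive and 9 negative, with a median of -0.01. Of 17 epithelial markers, Aqp5 had 704, 847 and 731 in MDA-LM2 macro and 241, 360.3 and 204 in MDA macro (1.54 ± 0.21, adjusted p = 0.073), and 2 were higher and 1 lower at an unadjusted p under 0.05, with the surfactant gene Sftpc at 204 to 464 in MDA-LM2 macro and 249 to 732 in MDA macro.

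Of 20 macrophage and monocyte markers, 3 were higher and 3 lower. The Fc receptor Fcgr3 had 553, 526 and 495 in MDA-LM2 macro and 313, 266 and 211 in MDA macro (1.01 ± 0.16), and Cd14, the endotoxin co-receptor, had 1546, 1013 and 869 in MDA-LM2 macro and 538, 531 and 342 in MDA macro (1.27 ± 0.26). Itgam, which encodes CD11b, was at 49.1, 59.8 and 46.2 in MDA-LM2 macro and 67.1, 59.3 and 75.0 in MDA macro, and the macrophage chitinase-like gene Chil3 at 68.5, 72.5 and 72.9 in MDA-LM2 macro and 187, 145 and 119.7 in MDA macro. Itgam in both groups, and Chil3 in MDA-LM2 macro, lay below the array medians of 174 to 186. Of the 20 markers, 6 had a mean at or above the median over genes in at least 1 of the groups. Csf1r, the receptor of the macrophage growth factor, spread from 128 to 584 in MDA-LM2 macro and from 121 to 306 in MDA macro. The sums of the list overlapped, at 5044 to 6856 in MDA-LM2 macro and 5043 to 5236 in MDA macro. Of 12 neutrophil markers 3 were higher and 0 lower, led by Hdc, the histamine-forming enzyme, with 1463, 1176 and 1128 in MDA-LM2 macro and 465, 635 and 394 in MDA macro (1.35 ± 0.20, adjusted p = 0.0848), while S100a8 was at 102, 129.8 and 289 in MDA-LM2 macro and 76.2, 88.3 and 91.0 in MDA macro. Alas2, the heme synthase of red cell precursors, had 1298, 948 and 763 in MDA-LM2 macro and 447, 389 and 248 in MDA macro (1.48 ± 0.27), and it was the only one of 5 measured erythroid and platelet genes past an unadjusted p of 0.05. The part of other cell types in these results was not tested.

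Contractile and matrix genes, which mark activated fibroblasts, held no called gene at week 3, though the shares lower exceeded the background in some lists. Of 30 contractile and smooth muscle genes, 2 were higher (6.67%) and 4 lower (13.3%) at an unadjusted p under 0.05. The shares over all genes were 5.91% and 4.33%, and the list median was -0.03. Acta2, alpha smooth muscle actin, had 9314, 9941 and 9812 in MDA-LM2 macro and 12089, 10218 and 9590 in MDA macro (-0.13 ± 0.12, 95% interval -0.41 to 0.16). Calponin (Cnn1) had 1195, 1562 and 1142 in MDA-LM2 macro and 924, 777 and 598 in MDA macro (0.77 ± 0.19), and Kcnmb1, a subunit of the smooth muscle potassium channel, had 521, 450.3 and 458 in MDA-LM2 macro and 748, 853 and 719 in MDA macro (-0.70 ± 0.12). Neither was called. Fibronectin (Fn1) had 12303, 11150 and 12134 in MDA-LM2 macro and 12559, 12059 and 11992 in MDA macro (95% interval of the log2 fold change -0.28 to 0.20). For tenascin C (Tnc) the interval was -0.23 to 0.37, for thrombospondin 2 (Thbs2) -0.22 to 0.33 and for lysyl oxidase (Lox) -0.25 to 0.27. These intervals are narrower than 2-fold on either side, but other probe sets of Tnc (-1.05) and Acta2 (-0.87, with -0.03 on the third) lay lower. Serpinb2, a plasminogen activator inhibitor, had 105, 72.9 and 61.3 in MDA-LM2 macro and 103, 109 and 43.4 in MDA macro, and its interval of -0.88 to 0.85 was the widest of these.

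Single matrix genes differed more than these. Of 39 collagen genes, 3 were higher (7.69%) and 5 lower (12.8%) at an unadjusted p under 0.05. Col18a1, the basement membrane collagen that yields endostatin, had 2686, 2332 and 2985 in MDA-LM2 macro and 4917, 4245 and 4181 in MDA macro (-0.74 ± 0.13), and Col5a3 had 880.3, 924 and 1067 in MDA-LM2 macro and 1727, 1508 and 1925 in MDA macro (-0.84 ± 0.14). Col4a4, of specialised basement membranes, ran the other way with 402, 504 and 510.3 in MDA-LM2 macro and 235, 309.6 and 238 in MDA macro (0.86 ± 0.16). Of 34 matrix glycoproteins 4 were higher and 2 lower, with Tgfbi, a TGF-beta induced adhesion protein, at 2265, 1900 and 1606 in MDA-LM2 macro and 998, 1201 and 1233 in MDA macro (0.74 ± 0.16), and Postn (periostin) at -0.38 ± 0.12. Of 13 small leucine-rich proteoglycans 3 were lower (23.1%, against 4.33% of all genes) and 0 higher, among them asporin (Aspn, -0.81 ± 0.19). Of 30 proteases and inhibitors 3 were higher and 4 lower, among them Plau (urokinase), with 261, 347 and 252 in MDA-LM2 macro and 469, 613 and 477 in MDA macro (-0.86 ± 0.17, and -0.49 with the mean of its probe sets), and the fibroblast activation protease Fap (-0.51 ± 0.21).

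Among inflammatory genes, several chemokines and early response genes were lower in MDA-LM2 macro. Of 28 CXC and CC chemokines, 5 were lower and 2 higher at an unadjusted p under 0.05, with a median of 0.00. Ccl7, a monocyte attractant, had 1627, 1626 and 1477 in MDA-LM2 macro and 2442, 3093 and 2696 in MDA macro (-0.79 ± 0.13, adjusted p = 0.103), and its neighbour in function Ccl2 had 5390, 4721 and 4240 in MDA-LM2 macro and 7398, 7200 and 7429 in MDA macro (-0.63 ± 0.12). For both genes the arrays of the groups were separate. Ccl2 was many times its healthy level in both groups, as it was at 578, 472 and 313 in healthy lungs. The neutrophil attractant Cxcl2 had a log2 fold change of -0.89 ± 0.24 and Ccl5 one of -0.61 ± 0.16.

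The ligands of the chemokine receptor CXCR3, a subject of the study, were not called at week 3. Cxcl9 had 684, 869 and 835 in MDA-LM2 macro and 783, 1012 and 706 in MDA macro (-0.06 ± 0.17, 95% interval -0.45 to 0.33, adjusted p = 0.942), with overlapping arrays. A second probe set of Cxcl9 was lower at -0.28 (limma unadjusted p = 0.0436), and the mean of its probe sets gave -0.17 (adjusted p = 0.683). Cxcl10 had 5117, 6758 and 5654 in MDA-LM2 macro and 8572, 7475 and 7222 in MDA macro (-0.41 ± 0.14, 95% interval -0.74 to -0.09, adjusted p = 0.384), without overlap. In healthy lungs Cxcl10 was at 171, 229 and 227.

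Of 30 genes of the IL-1 and NF-kB response, 7 were lower and 3 higher at an unadjusted p under 0.05. Without overlap, 10 lay lower, against 6.43% of all genes. Il6 had 3239, 2548 and 2520 in MDA-LM2 macro and 4526, 4382 and 5400 in MDA macro (-0.79 ± 0.15), Birc3, an inhibitor of apoptosis induced by NF-kB, had 749, 726 and 809 in MDA-LM2 macro and 1350, 1155 and 1734 in MDA macro (-0.87 ± 0.16, and -0.51 with the mean of its probe sets), and the acute phase protein Saa3 went the other way with 7499, 7323 and 7200 in MDA-LM2 macro and 4605, 5646 and 2589 in MDA macro (0.85 ± 0.27). Of 26 immediate early genes, which respond within minutes to a stimulus and also to tissue dissociation, 8 were lower and 0 higher, and 25 of the 26 had negative values with a median of -0.17. Atf3 had 1223, 1231 and 1088 in MDA-LM2 macro and 1788, 1922 and 1662 in MDA macro (-0.60 ± 0.11), and the orphan receptors Nr4a3 (-0.50 ± 0.14) and Nr4a1 (-0.32 ± 0.11) were also lower. Of 29 unfolded protein and amino acid stress genes 5 were lower and 1 higher, among them Ddit3 (CHOP, -0.55 ± 0.15) and Trib3 (-0.87 ± 0.24, and -0.47 with the mean of its probe sets). The part of digestion and sorting in these lists was not tested.

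MHC class II genes were higher in MDA-LM2 macro at an unadjusted p under 0.05 in 4 of the 8 measured. The antigen-presenting chain H2-Aa had 314, 336 and 371 in MDA-LM2 macro and 165, 201 and 226 in MDA macro (0.79 ± 0.15). Its partner chain H2-Ab1 had 407, 635 and 603 in MDA-LM2 macro and 275, 286 and 316 in MDA macro (0.88 ± 0.18), and neither overlapped. Their invariant chain Cd74 had 439, 816 and 519 in MDA-LM2 macro and 368, 435 and 306 in MDA macro (0.64 ± 0.24). The list median was 0.51, and none was called. Of 16 complement genes 3 were higher and 1 lower, with the regulator Cfi at 1503, 1171 and 1422 in MDA-LM2 macro and 748, 879.9 and 729 in MDA macro (0.79 ± 0.14) and the terminal component C6 at 1119, 973 and 978 in MDA-LM2 macro and 589.7, 422 and 738 in MDA macro (0.84 ± 0.20).

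Wnt and growth factor genes differed in both directions, and some had an adjusted p under 0.1. Of 34 Wnt pathway genes, 9 were higher and 4 lower at an unadjusted p under 0.05. Wnt5a, a ligand of the non-canonical pathway, had 2373, 2363 and 2511 in MDA-LM2 macro and 1431, 1419 and 1486 in MDA macro (0.74 ± 0.10, adjusted p = 0.07), with a spread far below the gap between the groups. Wnt4 (0.68 ± 0.19), the receptor Fzd1 (0.47 ± 0.13) and the feedback inhibitor Nkd1 (0.74 ± 0.15) were higher, while Wnt5b (-0.56 ± 0.17, and -0.35 with the mean of its probe sets) and Nkd2 (-0.75 ± 0.23) were lower. Other probe sets of Nkd2 gave -0.25, -0.28 and, in the opposite direction, 0.45 (unadjusted p = 0.0125). Of 41 PDGF, FGF, VEGF and IGF ligands and receptors 4 were higher and 6 lower. Fgf1, a secreted mitogen, had 1016, 1266 and 1044 in MDA-LM2 macro and 511, 591 and 511 in MDA macro (1.04 ± 0.13, adjusted p = 0.0642, and 0.49 with the mean of its probe sets). Angpt2, which loosens pericytes from vessels as a Tie2 ligand, had 740.3, 671 and 674 in MDA-LM2 macro and 1150, 1330 and 1204 in MDA macro (-0.82 ± 0.11, adjusted p = 0.0724, and -0.38 with the mean of its probe sets), and Pdgfa had 812, 1010 and 809 in MDA-LM2 macro and 1272, 1481 and 1369 in MDA macro (-0.65 ± 0.13).

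Markers of fibroblast subtypes were lower where they differed. Of 18 adventitial markers 4 were lower and 0 higher, with the transcription factor Ebf1 at 312, 294 and 299 in MDA-LM2 macro and 606, 548 and 558 in MDA macro (-0.92 ± 0.10, adjusted p = 0.0642) and Pi16 at 1823, 2816 and 2515 in MDA-LM2 macro and 2828, 3223 and 3800 in MDA macro (-0.47 ± 0.19). Of 20 alveolar markers 2 were lower and 0 higher, and the alveolar factor Tcf21 had 3132, 3364 and 4028 in MDA-LM2 macro and 3572, 3061 and 3885 in MDA macro (95% interval -0.34 to 0.34). Gsta4, a glutathione transferase that the NRF2 list holds, had 2290, 2105 and 1815 in MDA-LM2 macro and 818, 1044 and 822 in MDA macro (1.21 ± 0.15, adjusted p = 0.0642). Cdkn2b (p15), an inhibitor of the G1 kinases, had 1748, 2138 and 1740 in MDA-LM2 macro and 1166, 1194 and 661 in MDA macro (0.94 ± 0.24).

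Several lists held few genes at an unadjusted p under 0.05. Of 31 mitosis genes 1 was higher and 0 lower, and of 29 DNA replication genes 1 was higher and 0 lower. Of 26 type I interferon response genes 0 were higher and 1, Ifit2 (-0.53 ± 0.12), was lower, and of 20 interferon-gamma induced genes 1 was higher and 2 were lower. The TGF-beta list (2 higher and 2 lower of 30), the hypoxia and glycolysis list (2 higher and 1 lower of 27) and the YAP and TEAD list (1 higher and 0 lower of 20) were like them. The cholesterol synthesis and clock lists held larger shares. Of 20 cholesterol synthesis genes 4 were higher (20%, against 5.91% of all genes) and 0 lower. These 4 were higher by 0.37 (Cyp51, and -0.001839 with the mean of its probe sets) to 0.44 (Ebp). The 18 clock genes split into 3 higher and 3 lower (16.7% each, against 5.91% and 4.33% of all genes). Per3 was at 1.20 ± 0.46 but at 0.10 to 0.32 on its 5 other probe sets, and Cry1 was at -0.90 ± 0.28. Over the 37 lists other than that of Notch genes, 0 of 765 distinct genes were called at week 3, and 0 of the 29 Notch genes.

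**Figure D4:**
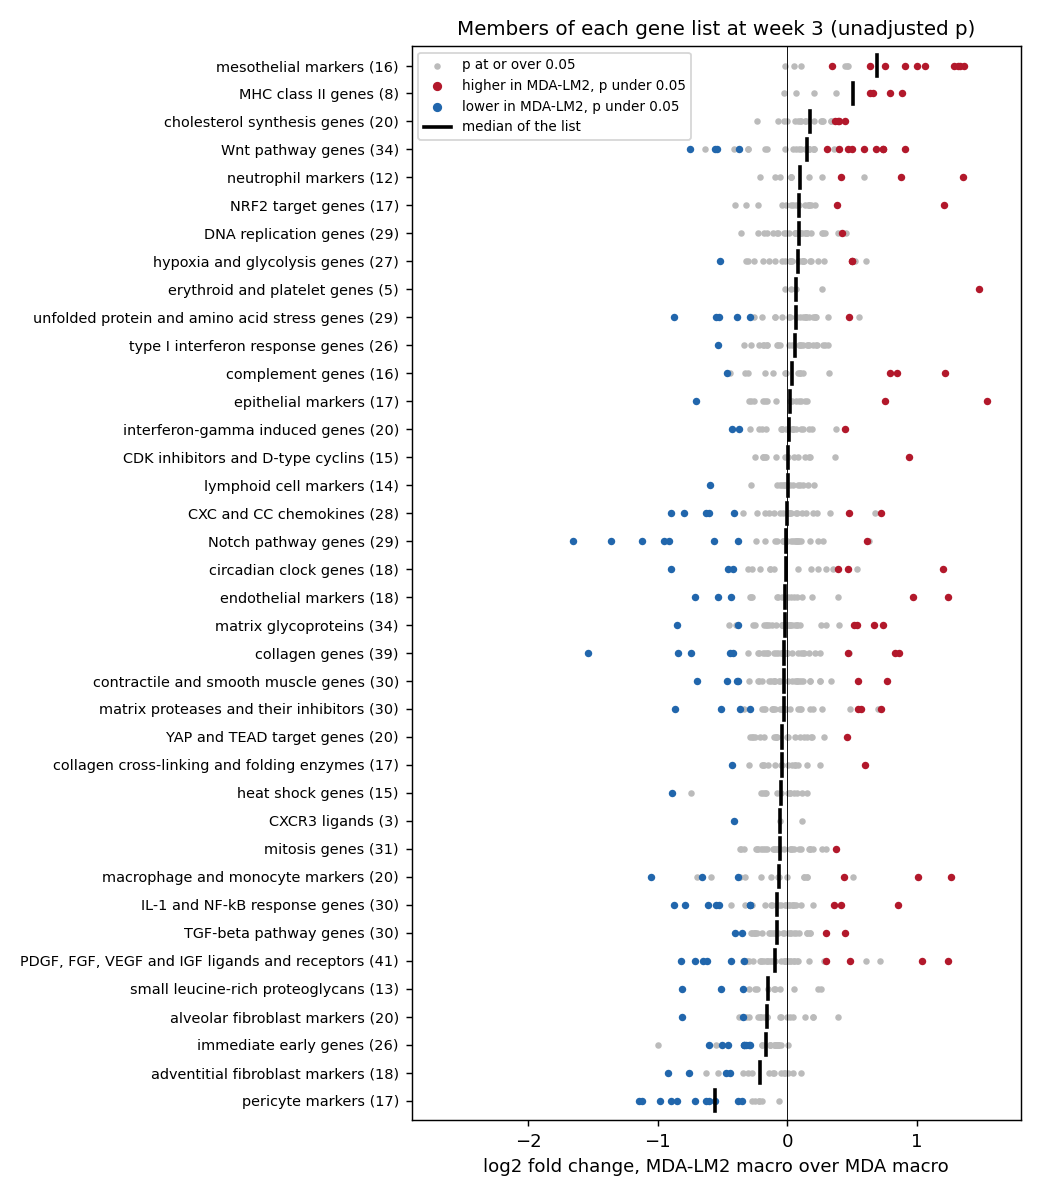
Each row is 1 gene list with its number of measured members, each point is 1 member at its log2 fold change of MDA-LM2 macro over MDA macro (x axis), coloured where the unadjusted limma p is under 0.05, and bars are list medians. The mesothelial (0.70) and MHC class II (0.51) medians lie farthest right and the pericyte median (-0.56) farthest left, while most medians lie close to 0.

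The week 1 arrays show whether the lines differed in the same genes earlier. In MDA-LM2 micro against MDA micro, 75 genes were called (0.412% of 18193), 62 of them higher. Of these 75, 0 were called at week 3, 18 had the same direction and 10 the opposite one at an unadjusted p under 0.05 there. Across all genes, which are not independent replicates and share probe chemistry and processing, the log2 fold changes of the 2 weeks correlated with a Pearson r of 0.01 and a Spearman rho of 0.03, with no array shared. The count of 75 was 33 without MDA micro replicate 3, 14 without MDA-LM2 micro replicate 2 and 0 without any other of the 6 week 1 arrays.

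The difference between the 2 weeks was tested directly, as the line effect at week 3 minus that at week 1 over 12 arrays. It was called for 103 genes, 28 higher (0.154%) and 75 lower (0.412%). Of the 75, 61 were higher with MDA-LM2 at week 1 and lower with it at week 3, and 14 were higher at both, by sign alone. With a threshold, 34 of the 75 were called higher at week 1, and 44 of the 75 were lower at week 3 at an unadjusted p under 0.05. Tmie was among them, with a week 1 log2 fold change of 1.02 ± 0.23 and a difference of -2.997 (SE 0.28, adjusted p = 0.00137). Of the pericyte list 4 of 17 were called lower in this difference, Rgs5 (-2.35 ± 0.32, adjusted p = 0.00938), Mcam (-2.32 ± 0.22, adjusted p = 0.00137), Notch3 (-2.16 ± 0.38) and Cspg4 (-1.56 ± 0.27). Rgs5 had 2459, 4056 and 3479 in MDA-LM2 micro and 1208, 855 and 1117 in MDA micro, so the order of the lines was reversed at week 3. The list medians were -0.56 at week 3 and 0.43 at week 1. The Notch targets Hey2 (-2.62 ± 0.37), Hey1 (-1.31 ± 0.21) and Heyl (-1.11 ± 0.18) were called as well. With 1 of the 12 arrays left out, Tmie, Rgs5, Mcam and Hey2 stayed called each time. The highest limma adjusted p was 0.077 for Notch3, 0.0876 for Cspg4, 0.0574 for Hey1 and 0.0572 for Heyl.

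Contractile genes differed at week 1 far more than at week 3. Their median was -0.03 at week 3 and 0.80 at week 1, when 11 of the 30 were called higher, and 9 of the 30 were called lower in the difference. Acta2 had 12197, 12294 and 12317 in MDA-LM2 micro and 7118, 6743 and 7282 in MDA micro (0.80 ± 0.10), with a difference of -0.93 ± 0.15 (adjusted p = 0.0215). Myocd, the coactivator of smooth muscle genes, had a week 3 value of -0.38 ± 0.14 (-0.17 with the mean of its probe sets), a week 1 value of 1.99 ± 0.25 and a difference of -2.37 ± 0.31. For Tpm2, Actg2, Lmod1, Hspb6 and Sh3bgr the week 3 values lay between -0.14 and 0.55 and the week 1 values between 0.93 and 2.23. With 1 array left out, Myocd stayed called in the difference, while Acta2 and these genes each lost the call at least once. Of Tpm2 (0.06), other probe sets gave 0.02, -0.54 and -0.43 at week 3, and Sh3bgr was at 0.22 with the mean of its probe sets. The mitosis gene Top2a was also called lower in the difference (-1.13 ± 0.15), as was the immediate early gene Myc (-1.59 ± 0.30).

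In the other direction, Kdr, Aqp5, Alas2, Gsta4 and Disp2 were called higher in the difference. With 1 array left out, only Gsta4 of these stayed called each time. The highest limma adjusted p was 0.0645 for Kdr, 0.05025 for Aqp5, 0.103 for Alas2 and 0.108 for Disp2. Kdr had a week 1 log2 fold change of 0.07 ± 0.14 and a difference of 1.17 ± 0.19 (adjusted p = 0.0228). It was at 82.2, 78.0 and 86.8 in MDA-LM2 micro and 68.0, 79.3 and 88.9 in MDA micro, with overlapping arrays, and at 91.9 to 107 in healthy lungs. Aqp5 had a difference of 1.76 ± 0.27 (adjusted p = 0.0175) and Gsta4 one of 1.65 ± 0.21 (adjusted p = 0.00769). Of the 16 mesothelial markers 0 were called in the difference, although the list medians were 0.70 at week 3 and 0.01 at week 1. For Cxcl9 the difference was -1.15 ± 0.26 (adjusted p = 0.0794) and for Cxcl10 it was -1.37 ± 0.36 (adjusted p = 0.131), neither called. The count of 103 was 44 to 112 with 1 of the 12 arrays left out. It was 44 without MDA macro replicate 3, 47, 50 and 57 without MDA-LM2 macro replicates 1, 2 and 3, 67 without MDA micro replicate 2 and 57 without MDA-LM2 micro replicate 3.

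**Figure D5:**
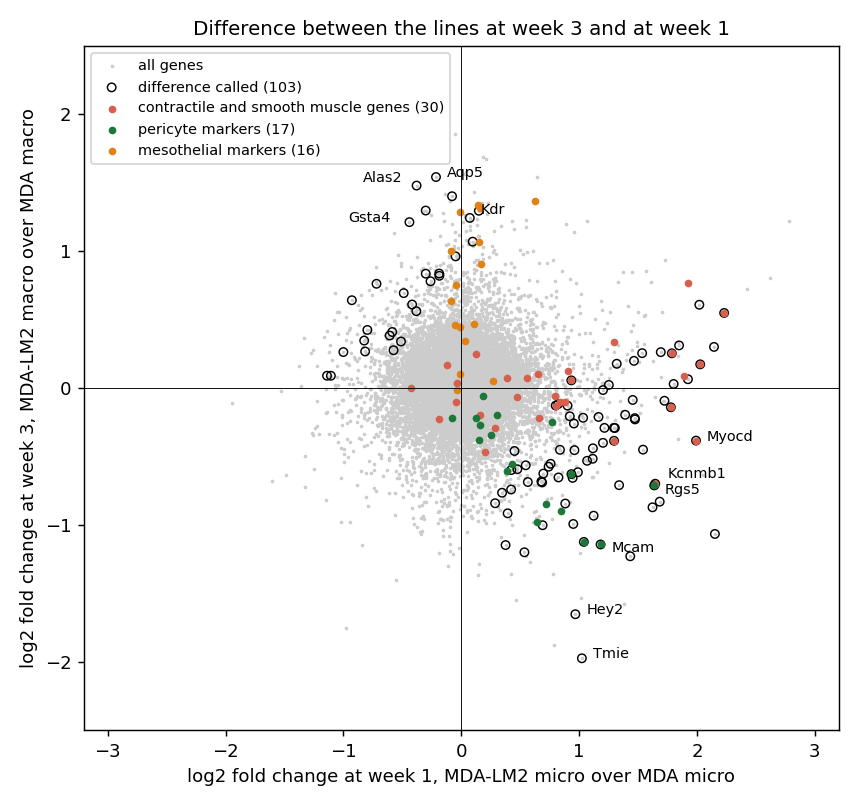
Each point is 1 gene, with the log2 fold change of MDA-LM2 over MDA at week 1 on the x axis and at week 3 on the y axis, and open circles mark the 103 genes called in the difference. Most contractile genes lie to the right with values near 0 on the y axis, most pericyte markers to the right and below 0, and most mesothelial markers near 0 on the x axis and above 0.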

How the data were processed

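RNA of sorted lung fibroblasts was amplified from small inputs and hybridised by the authors to Affymetrix Mouse Genome 430 2.0 arrays, 1 array per sample. The deposited values are intensities on a linear scale that the authors had already normalised by RMA, per the paper's methods, so that background correction, quantile normalisation and probe summary were fixed before deposit. They range from 31.0 to 27897 over 45100 probe sets, and no array-wide rescaling was applied. RMA pulls low signals together, so fold changes of dim genes are understated, and precision is set by 3 arrays a group. Here log2 was taken of the deposited intensities. Of the probe sets, 64 were controls, 34944 had 1 symbol, 932 had several and 9160 had none, and for each of 18193 genes the single-symbol probe set of highest mean log2 over 15 arrays was used (9010 genes had several).

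MDA-LM2 macro and MDA macro (3 arrays each) were compared with limma 3.58.1 in R 4.3.3 (lmFit, eBayes), in a fit of these 6 arrays, with Benjamini-Hochberg adjustment over all genes. All adjusted and unadjusted p of genes are from limma and two-sided. The week 1 lines were compared likewise, and the difference of the line effects in a fit of 12 arrays. Values after ± are standard errors. The spread covers arrays of 1 to 3 mice each, and the mouse number per array was not used. The code was tested on simulated data.

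Genes were named by a fixed rule, with 12 per direction. Called genes without overlap and with at least the median level in the higher group came first. The largest fold changes with an unadjusted p under 0.05 and no overlap, at any level, filled the rest. A set of study and marker genes and up to 6 members of lowest p per list were added. The comparison, the lists and the named genes were chosen with earlier results of these data known, and the Notch list and its named members (Hey1, Heyl, Jag1, Notch1, Psen2) after these values were seen. Outside the rule, Col1a1, Col1a2 and Dcn were named for the marker check, and the list members Actg2, Lmod1, Tpm2, Hspb6, Top2a and Myc, called in the difference of the weeks, after their values were seen. Alternatives were all 15 arrays in 1 fit, the replicate number as a block, quantile normalisation, median centring, the mean of all probe sets of a gene, an intensity trend in the prior, only genes at or above the median level, and leaving out each array. Alternatives on the pericyte, mesothelial and Notch counts were added after seeing the data. Upstream sequences were taken from RefSeq (GRCm38.p6).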

Additional observations from a re-analysis of the deposited data

Results flagged for a closer look

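For 26 named genes, the effect of the line differed between week 3 and week 1 by the test of the difference itself (limma, 12 arrays, adjusted over all 18193 genes). The values are the log2 fold change of MDA-LM2 over MDA at week 3 minus that at week 1.

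In 21 genes the difference was negative. Among pericyte markers and Notch genes it was -2.62 for Hey2, -2.348 for Rgs5, -2.324 for Mcam, -2.163 for Notch3, -1.562 for Cspg4, -1.308 for Hey1 and -1.11 for Heyl. All 7 were higher with MDA-LM2 at week 1 and lower with it at week 3 in their group means. Among contractile genes it was -2.375 for Myocd, -2.344 for Kcnmb1, -1.918 for Lmod1, -1.853 for Hspb6, -1.681 for Sh3bgr, -1.681 for Des, -1.532 for Actg2, -0.9282 for Acta2 and -0.8765 for Tpm2. The other 5 were Tmie at -2.997, the collagens Col5a3 at -1.725 and Col18a1 at -1.163, the early response gene Myc at -1.585 and the topoisomerase Top2a at -1.126.

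In 5 genes the difference was positive, at 1.86 for Alas2, 1.757 for Aqp5, 1.653 for Gsta4, 1.481 for Disp2 and 1.172 for Kdr. The named genes were chosen by their week 3 values, which are part of the difference, or after this test.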

How the results depend on the processing

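The 2 genes called at week 3 became 64 with all 15 arrays in 1 fit, 21 with the mean of all probe sets of a gene (Sema5b but not Tmie among them), 15 with only genes at or above the median level (9097 tested), 1 (Tmie) with an intensity trend in the prior, and 2 with quantile normalisation or median centring. Leaving out any 1 array gave 0 calls each time, with 1441 to 1911 genes at an unadjusted p under 0.05. Equal replicate numbers did not pair the arrays (correlations -0.05, 0.01 and 0.04), and the replicate block gave 0 calls at week 3 (adjusted p 0.101 for Tmie and 0.133 for Sema5b, 1791 genes at an unadjusted p under 0.05), 83 in the difference of the weeks and 0 at week 1. Called members of the 37 lists without the Notch list came to 10 with 15 arrays and 4 with the mean of probe sets, against 0, and of the named Notch genes Hey2 and Notch1 were called with 15 arrays and Nrarp with the mean of probe sets. With only genes at or above the median level, 3 mesothelial markers were measured as higher at an unadjusted p under 0.05, against 10, as fewer members were tested, and leaving out an array gave 5 to 11. The difference of the weeks was called for 44 to 112 genes with an array left out, and week 1 for 231 genes with 15 arrays and 0 to 33 with an array left out.

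Among named genes, 1170 of the values under the alternatives that keep all arrays stayed on their side of 0 and of the threshold, 32 newly passed it, 5 no longer did and 10 changed sign. With the mean of probe sets, the sign changed for Tnc (-0.49), Adamts9 (-0.29), Tpm2 (-0.22), Cdh5 (-0.0875), Cyp51 (-0.001839), Ptprc (-0.001213), Top2a (0.06444) and Tcf21 (0.001726), and Tcf21 was 0.005025 with quantile normalisation and 0.002782 with median centring. With an array left out, log2 fold changes of 15 genes near 0 changed sign at least once: Cxcl9 -0.17 to 0.09009, Pdgfra -0.006055 to 0.13, Tnc -0.02868 to 0.14, Fn1 -0.06891 to 0.002068, Thbs2 -0.02873 to 0.11, Lox -0.04102 to 0.06266, Serpinb2 -0.45 to 0.22, Csf1r -0.46 to 0.63, Pecam1 -0.22 to 0.13, Cdh5 -0.19 to 0.20, Sftpc -0.60 to 0.19, Tcf21 -0.10 to 0.07707, Lmod1 -0.30 to 0.07045, Tpm2 -0.04531 to 0.13 and Hspb6 -0.02722 to 0.39. Of the differences between the weeks of the named genes, 41 stayed called and 11 did not under the alternatives that keep all arrays, 190 stayed called and 122 did not with an array left out, and none changed sign. The cause was not tested.

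Precision was limited by 3 arrays a group: the median standard error was 0.15 log2.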
